A study of Homo sapiens with 4 samples.

Results

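The regions described here are the 548 of 5326 in which HNF4A stood at least 2-fold above IgG at high glucose and less than 2-fold above it at low glucose. They were chosen by these values alone: a log2 ratio of HNF4A over IgG at or above 1 at high and below 1 at low glucose, in the same 4 libraries from which the values below come. The members make up 10.3% of all regions, beside 1670 regions (31.4%) that reached 2-fold at both glucose levels, 824 (15.5%) that reached it at low glucose only and 2284 (42.9%) that reached it at neither. The order of the classes depends on the scale: with each table centred on its median, 597 regions were at high glucose only and 353 at low glucose only. In ChIP-seq, chromatin fragments pulled down with an antibody to a protein are sequenced, and a pull-down with unspecific IgG measures what is recovered by chance. The cells were HCCLM3, an established human hepatocellular carcinoma line, and there was 1 library for each of HNF4A at high glucose, IgG at high glucose, HNF4A at low glucose and IgG at low glucose. The series set out to find the genes HNF4A targets as glucose varies. The labels give all 4 samples the same High Glucose DMEM with serum and the same account of stable lentiviral overexpression lines, and they name neither the overexpressed gene nor the glucose concentrations. With 1 library per group nothing below has a replicate check, and no test of the conditions was possible. ChIP reads give no expression level, so the cell line was not checked against marker genes.

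HNF4A is a nuclear receptor that binds DNA as a homodimer and switches on genes of lipid, bile acid, drug and glucose metabolism in hepatocytes. It works in a network with other liver factors, and its loss from hepatocytes goes with loss of the differentiated state. AMPK, the kinase named in the title of the series, is activated when cellular energy falls, as in glucose shortage.

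Of the members, 18 (3.28%) had a microRNA gene as the closest gene listed by the authors, beside 169 of all regions (3.17%). These 18 regions belong to 17 microRNA genes, of which 14 have mature sequences in the RefSeq table used (GRCh38.p14), and no 2 of these share a seed. Mature sequences are shown 5′ to 3′ for 4 of them, because they are a widely studied liver cancer microRNA, the only microRNA gene with 2 member regions, and the pair with the largest differences between the glucose levels. Capitals mark the seed, bases 2 to 8.
hsa-miR-21-5p: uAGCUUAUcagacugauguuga
hsa-miR-4714-5p: aACUCUGAccccuuagguugau
hsa-miR-4714-3p: cCAACCUAgguggucagaguug
hsa-miR-4276: cUCAGUGAcucaugugc
hsa-miR-4795-3p: aUAUUAUUagccacuucuggau
hsa-miR-4795-5p: aGAAGUGGcuaauaauauuga

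The member nearest to MIR21 (chromosome 17, 57906305 to 57907195, all region coordinates being hg19) held 58 HNF4A and 20 IgG reads at high glucose, and 27 and 16 at low glucose. Its log2 ratio over IgG, computed on reads scaled by library size, was 1.39 at high and 0.73 at low glucose, and the difference of 0.66 had an exact 95% counting interval of -0.61 to 1.92, which includes 0. Nearest to MIR4276 (chromosome 4, 175382568 to 175383514) there were 43 HNF4A and 3 IgG reads at high glucose, against 17 and 10 at low glucose. That is a log2 ratio of 3.70 against 0.74, a difference of 2.96 (0.74 to 5.57), which rests on 3 IgG reads. MIR4795 (chromosome 3, 87255184 to 87255927) had 38 and 4 reads at high glucose and 15 and 13 at low glucose, a difference of 2.92 (0.91 to 5.17). For both, HNF4A was higher and IgG lower at high than at low glucose. The pair of regions nearest to MIR4714, on chromosome 15, differed from each other. The region from 99270656 to 99271356 held 34, 12, 15 and 8 reads in HNF4A high, IgG high, HNF4A low and IgG low, and its ratio was 1.36 against 0.88. From 99322939 to 99323470 the reads were 18, 4, 11 and 12 in the same order, and the ratio of 2.02 at high glucose stood against -0.15 at low glucose. Across the 18 microRNA regions, HNF4A was higher at high glucose in 17 and IgG was lower in 15, beside 94.5% and 64.6% of all members and 81.8% and 22.1% of all regions. In 3 of the 15, MIR5188, MIR3142 and MIR4668, the IgG reads were equal and the scaled value was lower by 0.016 on the log2 scale only. The gene named is the closest one only: distances were not used here, and closeness does not show regulation.

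The sequences of the regions themselves are not shown, since no genome of their build was used here. In place of them, RefSeq promoters (250 bases before to 50 after a gene's start, GRCh38.p14) of the closest genes were searched on both strands for CAAAGTCCA, CAAAGTTCA and CAAAGGTCA, close variants of the sequence HNF4A homodimers prefer. Of the 514 genes closest to a member, 359 (69.8%) had a promoter in the table, too few for a share to be read, and the comparison with other regions is void. Over all 35116 promoters, 1.08% held at least 1 of the 3 motifs: 0.384%, 0.296% and 0.407% in the order given. Of the members' genes, 3 hold one, and a stretch that ends before the gene's start is shown for 2 of these, so that the match can be seen in its surroundings. Capitals mark the motif, and each sequence runs 5′ to 3′ on the gene's strand.
CYP2R1: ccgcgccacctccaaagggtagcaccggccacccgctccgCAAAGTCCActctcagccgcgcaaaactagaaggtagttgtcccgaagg
RREB1: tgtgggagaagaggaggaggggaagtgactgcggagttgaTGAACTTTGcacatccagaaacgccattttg

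CYP2R1 encodes a vitamin D hydroxylase of the liver, and its motif starts 166 bases before the gene's start (GRCh38.p14 chr11:14892349-14892437, minus strand). Its member region held 22 HNF4A and 7 IgG reads at high glucose and 17 and 12 at low glucose, or 1.51 against 0.48 as log2 ratios. RREB1 encodes a zinc finger factor of Ras signalling (chr6:7107890-7107960, plus strand), and there TGAACTTTG is CAAAGTTCA read on the other strand, 31 bases before the start. Its region held 43 and 16 reads at high glucose and 20 and 10 at low glucose, 1.28 against 0.97, so it lay just under the threshold at low glucose. Whether either member region covers the stretch shown was not determined. A match describes letters in a window and not a binding site.

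Summed over the 548 members, the HNF4A library at high glucose had 36091 reads and that at low glucose 20224, while IgG had 11880 and 12756. The median member held 52 HNF4A reads (7 to 436) at high glucose against 29 (4 to 276) at low glucose, and 17 (1 to 152) and 18 (5 to 157) IgG reads. Over all regions the medians were 50 and 35 for HNF4A and 26 and 18 for IgG. The members therefore differed from the typical region in 2 places: fewer IgG reads at high glucose and fewer HNF4A reads at low glucose. Relative library sizes were 1.1 for HNF4A high, 0.993 for IgG high, 1 for HNF4A low and 0.982 for IgG low.

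By the rule, every member reached a log2 ratio of 1 at high glucose, which 41.6% of all regions did, and none did at low glucose, which 46.8% of all regions did. The median ratio of members was 1.41 at high glucose (quartiles 1.18 and 1.88, highest 5.50) and 0.71 at low glucose (quartiles 0.49 and 0.89). The contrast of the name is therefore graded: 406 members (74.1%, beside 26.5% of all regions) stood between 0.5 and 1 at low glucose. Below IgG there stood 28 members (5.11%, beside 8.51%). As many as 147 members (26.8%, beside 7.42% of all regions) lay between 1 and 1.2 at high glucose. At low glucose 210 (38.3%, beside 10.9%) lay between 0.8 and 1. The difference of the ratios, high minus low, had a median of 0.86 (0.03 to 4.82), beside -0.15 over all regions, and 226 members (41.2%) reached 1 in that difference, beside 8.49% of all regions. Its counting interval lay above 0 in 124 members (22.6%), among 213 of all regions, and the rule favours both counts.

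**Figure D1:**
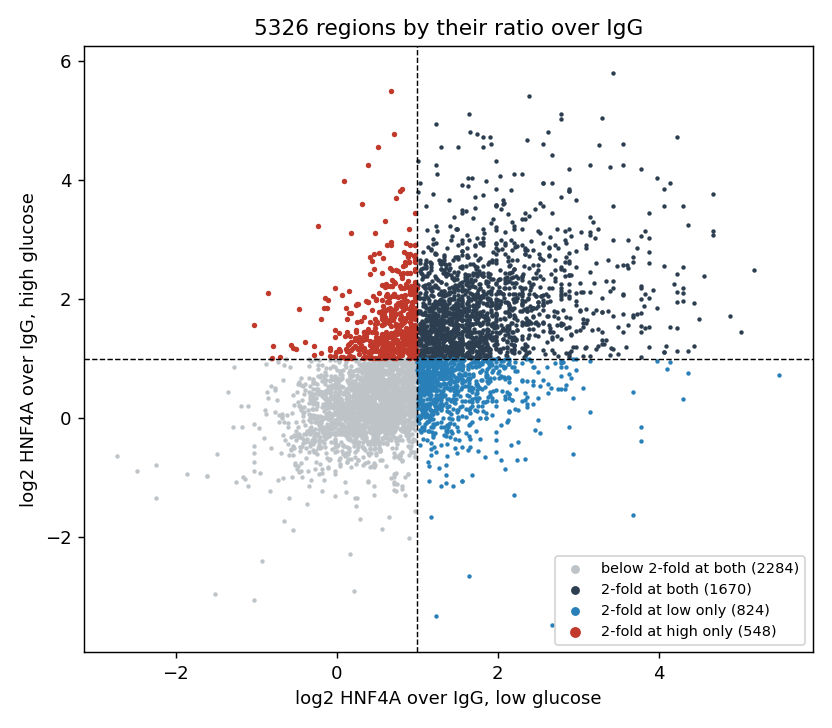
Log2 ratio of HNF4A over IgG at low glucose (x axis) and at high glucose (y axis) for all 5326 regions, 1 point each, coloured by which dashed threshold of 1 they pass. The 548 members (red) fill the upper left quadrant, and 406 of them lie between 0.5 and 1 on the x axis.

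The regions at the thresholds show how fine the line is. Just inside the threshold at high glucose were the regions nearest to NINJ2, with 62 HNF4A reads over 28 IgG reads at high glucose and 32 and 19 at low glucose, and to the pseudogene ACTR3BP2, with 62 and 28, then 34 and 30. Just outside it, at a log2 ratio of 0.997, were INAFM1 and an unnamed region on a random contig of chromosome 9, each with 53 HNF4A reads over 24 IgG reads at high glucose. At low glucose, DKFZP434K028 stood just inside at 0.998 (59 and 29 reads) and a region of PHLDA1 at 0.993 (77 and 38 reads). CASD1, with 51 and 25 reads at low glucose, and MIR4289, with 49 and 24, both at 1.0, were just outside and so count among the regions that reached 2-fold at both levels. At these depths 1 read more or less in a library moves such a region across the line. With each table centred on its own median in place of the fixed threshold, 597 regions are high only, of which 163 are among the 548.

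HNF4A itself carried more scaled reads at high glucose in 518 of the 548 members and fewer in 30, against 4357 more and 969 fewer over all regions. The median log2 ratio of HNF4A at high over low glucose was 0.70 in members (quartiles 0.45 and 0.93), beside 0.36 over all regions, 0.45 in those at 2-fold at both levels and 0.12 in those at low glucose only. At least a 2-fold increase was held by 104 members (19.0%), beside 6.78% of all regions. IgG was the lower at high glucose in 354 members (64.6%), beside 22.1% of all regions. Both shares include regions with equal IgG reads, such as ERRFI1, whose scaled log2 ratio is -0.016 through library size alone. The median IgG ratio of high over low glucose was -0.17 in members, beside 0.51 over all regions, 0.42 in regions at both levels and 1.08 in regions at low glucose only. IgG stood at least 2-fold lower at high glucose in 74 members (13.5%), beside 3.38% of all regions. With each table centred on its median, the median of all regions is 0. The regions then chosen had a median of 0.30 for HNF4A and of -0.85 for IgG. Measured from the medians of all regions, the 548 members lay at 0.34 for HNF4A and -0.68 for IgG. HNF4A was thus in excess under both choices, and IgG lay further from the medians, on the low side. Members were chosen by all 4 of these libraries, so these shares describe how the rule was met and carry no test.

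Set against the medians of all regions, members lay 0.34 higher in HNF4A and 0.68 lower in IgG, on the log2 scale. HNF4A above its median and IgG below its median came together in 412 members (75.2%), beside 24.5% of all regions. In 36 members (6.57%) HNF4A alone lay on the side the rule favours, and in 100 members (18.2%) IgG alone did. Each of these held for 25.5% of all regions. A counting interval above 0 for HNF4A at high over low glucose was found in 296 members (54.0%, beside 25.8% of all regions). In 284 of these the interval of IgG included 0, which is 51.8% of members, beside 17.8% of all regions. Regardless of HNF4A, the IgG interval included 0 in 511 members (93.2%) and in 71.9% of all regions, so that inclusion does not show a steady IgG. The IgG interval lay wholly below 0 in 34 members (6.20%, beside 1.93%). HNF4A was at least 2-fold higher with IgG no lower in 55 members (10.0%, beside 5.05% of all regions). In 7 members (1.28%, beside 0.225%) an HNF4A at least 2-fold higher met an IgG at least 2-fold lower. IgG thus differed along with HNF4A across the set, and its part in the result was not tested.

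**Figure D2:**
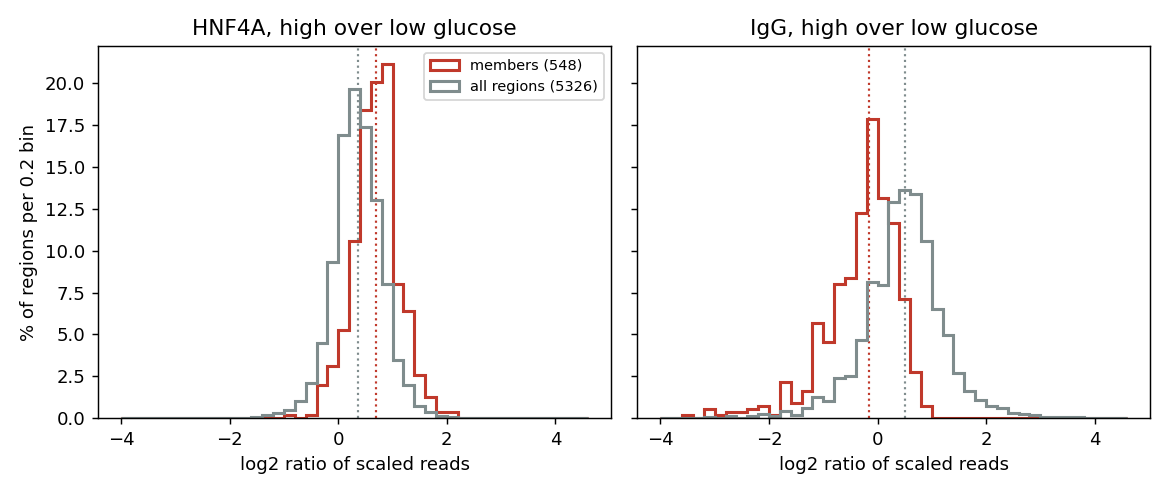
Share of regions per 0.2 bin of the log2 ratio of scaled reads at high over low glucose, for HNF4A (left) and IgG (right), in the 548 members (red) and all 5326 regions (grey), with dotted lines at the medians. The members' median stands at 0.70 against 0.36 for HNF4A and at -0.17 against 0.51 for IgG.

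In the authors' deposited table of HNF4A over IgG at high glucose, 39 members (7.12%) had an unadjusted p under 0.05. Of all 5326 regions, 264 (4.96%) had such a p with HNF4A above IgG. The lowest p of a member in the authors' deposited table was 0.000796, and the lowest false discovery rate was 0.848, so 0 members passed 0.05 after adjustment. In the authors' deposited table of HNF4A alone, 80 members (14.6%) had a p under 0.05 with HNF4A higher at high glucose, beside 4.39% of all regions. These p-values come from the libraries by which members were chosen. The rule therefore favours both counts, and neither carries a test. The member with the lowest p over IgG, LOC101927901, a long noncoding RNA locus (chromosome 12, 68141218 to 68143300), held 196 HNF4A and 27 IgG reads at high glucose and 67 and 34 at low glucose. Its log2 ratio was 2.71 at high glucose and 0.95 at low glucose, a difference of 1.76 (0.87 to 2.65). HNF4A was 1.41 higher on the log2 scale at high glucose (1.01 to 1.84), and IgG stood at -0.35 with an interval of -1.13 to 0.42, which includes 0.

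Only 5 members were separated from the 2-fold line at both glucose levels by their counting intervals, wholly at or above 1 at high and below 1 at low glucose. By comparison, 13 of the 824 regions at low glucose only met the mirror condition. The region nearest to TES, which encodes a focal adhesion protein (chromosome 7, 115912918 to 115914589), was the deepest of these 5, with 436 HNF4A reads over 122 IgG reads at high glucose and 212 and 138 at low glucose. Its log2 ratio was 1.69 (1.40 to 1.99) against 0.59 (0.28 to 0.91), a difference of 1.1 (0.66 to 1.54). As scaled reads, HNF4A made up most of this difference, at 0.90 higher at high glucose against -0.19 for IgG. Over all regions the medians of these ratios were 0.36 and 0.51, and measured from them IgG was the larger part. SMURF1, a ubiquitin ligase that targets SMAD proteins (chromosome 7, 98759606 to 98760716), held 79 and 21 reads at high glucose and 38 and 33 at low glucose, 1.77 against 0.18. VHLL, a relative of the VHL gene (chromosome 1, 156271191 to 156273255), held 122 and 36, then 81 and 60, 1.61 against 0.41. At STK17A, a kinase gene of the death-associated family (chromosome 7, 43679251 to 43680107), the reads were 40 and 8, then 25 and 25, 2.18 against -0.03. In VHLL and STK17A the IgG side was the larger part of the difference, with log2 ratios of -0.75 and -1.66 for IgG beside 0.46 and 0.54 for HNF4A. The fifth, on a random contig of chromosome 9, had no closest gene and held 31 HNF4A and 3 IgG reads at high glucose.

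Among members with a level that reached the median of all regions, the 10 largest differences of ratios lay nearest to LOC101927901, C4BPB, PDE4DIP, ETFB, SFXN5, SMURF1, TRIB1, FLJ26245, MYC and FAM60A. C4BPB, a chain of the liver's C4b-binding protein that restrains complement (chromosome 1, 207261802 to 207263456), held 91 HNF4A and 14 IgG reads at high glucose and 45 and 25 at low glucose. Its ratio was 2.55 against 0.82, a difference of 1.73 (0.57 to 2.92). ETFB, a subunit of the electron transfer flavoprotein of mitochondrial fatty acid oxidation (chromosome 19, 51853589 to 51854687), had 88 and 16, then 36 and 22, and a difference of 1.63 (0.45 to 2.82). Both had more HNF4A reads and fewer IgG reads at high glucose. SFXN5, a mitochondrial carrier gene (chromosome 2, 73227912 to 73228956), had 78 and 13, then 47 and 26, a difference of 1.61 (0.43 to 2.83). There the IgG ratio of -1.02 was larger in size than the HNF4A ratio of 0.60. PDE4DIP, a scaffold of the centrosome and Golgi (chromosome 1, 144893503 to 144894956), had 75 and 18, then 29 and 24, a difference of 1.67 (0.49 to 2.84). FAM60A, a subunit of a histone deacetylase complex (chromosome 12, 31523110 to 31524782), had 87 and 20, then 47 and 33, 1.49 (0.47 to 2.53). FLJ26245 on chromosome 16 (35215648 to 35216301) was the exception in HNF4A, whose 54 and 40 reads came to a log2 ratio of only 0.30, while IgG had 21 reads at high against 48 at low glucose.

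Taking 1 region per gene, the most HNF4A reads at high glucose lay, after TES, nearest to MDFIC, GAPDH, AZIN1, LINC00824 and LINC00656. A further TES member (115956348 to 115957849) held 340 and 152 reads at high glucose and 200 and 130 at low glucose, 1.02 against 0.60. These deep regions had smaller differences than the members above. MDFIC, a transcriptional regulator gene (chromosome 7, 114529243 to 114530676), held 429 and 131 reads at high glucose and 276 and 157 at low glucose, a difference of 0.78 (0.36 to 1.19). AZIN1, which encodes an antizyme inhibitor of polyamine control, had 323 and 124, then 196 and 100, and a difference of 0.29 (-0.19 to 0.77). LINC00824 had 244 and 85, then 136 and 85, 0.72 (0.17 to 1.28), and LINC00656 had 234 and 84, then 130 and 69, 0.44 (-0.14 to 1.02). For AZIN1 and LINC00656 the interval of the difference included 0 in spite of the depth.

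**Figure D3:**
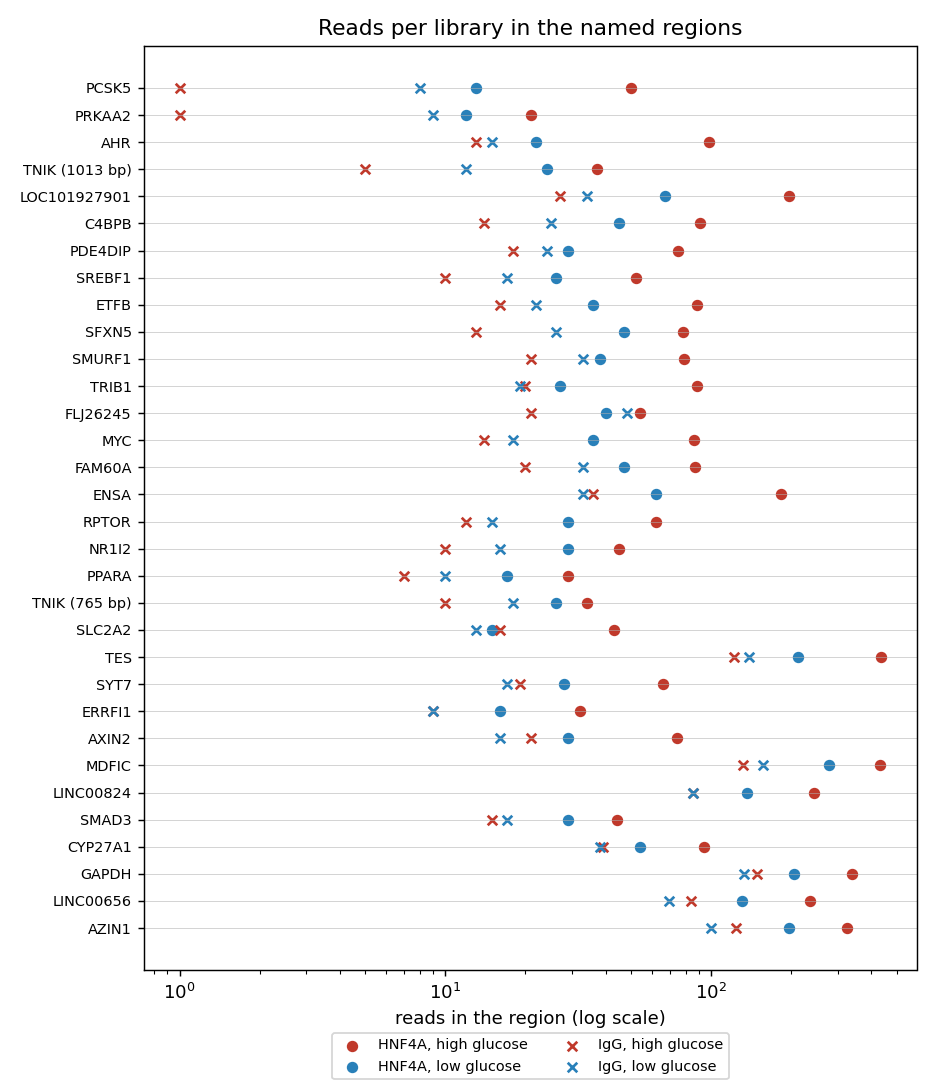
Reads per library (log scale) in member regions named by the rule given under the processing, ordered by the difference of log2 ratios with the largest at the top; circles are HNF4A, crosses IgG, red high glucose and blue low glucose, and a length in bp separates the 2 TNIK regions. PCSK5 and PRKAA2 at the top have 1 IgG read at high glucose, while the deep TES, MDFIC and GAPDH regions lie lower.

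Of the nuclear receptors and cofactors, 2 of 12 regions were members, 3 were at both levels, 2 at low glucose only and 5 at neither. NR1I2, the pregnane X receptor that induces drug metabolism (chromosome 3, 119513588 to 119514462), held 45 and 10, then 29 and 16, 2.02 against 0.83. PPARA, the receptor that drives fatty acid oxidation (chromosome 22, 46591369 to 46592171), held 29 and 7, then 17 and 10, 1.90 against 0.74. Both intervals of the difference, -0.26 to 2.68 and -0.68 to 3.05, included 0.

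Bile acid and drug genes gave 2 members among 6 regions, beside 3 at both levels and 1 at low glucose only. AHR, the ligand-activated factor that induces xenobiotic enzymes, had a member on chromosome 7 (17138801 to 17139593) with 98 HNF4A reads at high glucose against 22 at low, over 13 and 15 IgG reads. Its ratio was 2.77 (1.93 to 3.73) against 0.53 (-0.49 to 1.58), a difference of 2.24 (0.84 to 3.63). As scaled reads, this difference lay mostly on the HNF4A side, which was 2.02 higher on the log2 scale (1.34 to 2.76). IgG stood at -0.22 (-1.41 to 0.95), where the medians of all regions were 0.36 for HNF4A and 0.51 for IgG. Other AHR regions fell elsewhere: the one from 17337930 to 17339332 reached 2-fold at low glucose only, with 52 and 37 reads at high and 47 and 14 at low glucose, and the one from 17251599 to 17252357 reached it at both. CYP27A1, a sterol hydroxylase of bile acid synthesis (chromosome 2, 219645645 to 219647742), had 94 and 39, then 54 and 38, a difference of 0.64 (-0.22 to 1.5).

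Lipoprotein and cholesterol genes gave 2 members of 18 regions, beside 10 at both levels, 2 at low glucose only and 4 at neither. SREBF1, the master factor of lipid synthesis (chromosome 17, 17733735 to 17734738), held 52 and 10 reads at high glucose and 26 and 17 at low glucose, 2.23 against 0.59, a difference of 1.65 (0.20 to 3.13). TRIB1, a pseudokinase linked to plasma lipids (chromosome 8, 126605656 to 126606849), held 88 HNF4A reads at high against 27 at low glucose, over 20 and 19 IgG reads. As scaled reads, the TRIB1 difference of 1.51 (0.30 to 2.70) again lay on the HNF4A side, with 1.57 (0.93 to 2.25) for HNF4A and 0.06 for IgG. A further 6 TRIB1 regions were not members, and 4 of those reached 2-fold at both levels. None of the 8 regions nearest to fatty acid metabolism genes and none of the 10 nearest to secreted liver protein genes was a member.

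Glycolysis and glucose response genes had 2 members among 11 regions, beside 6 at both levels and 3 at neither. SLC2A2, the glucose transporter of hepatocytes also called GLUT2 (chromosome 3, 170745690 to 170746624), held 43 HNF4A reads at high against 15 at low glucose, over 16 and 13 IgG reads. HNF4A was higher by 1.38 on the log2 scale (0.51 to 2.34), but the difference of ratios, 1.1 (-0.41 to 2.60), had an interval that included 0. GAPDH, a glycolytic enzyme, had the longest member region, 5186 bp (chromosome 12, 6640545 to 6645730), with 338 and 149 reads at high and 204 and 133 at low glucose. Its ratio of 1.04 lay close to the threshold, and the difference was 0.44 (0.01 to 0.88). None of the 3 regions of gluconeogenesis and glycogen genes was a member.

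AMPK and mTOR genes had 29 regions, of which 2 (6.90%) were members, 7 were at both levels, 6 at low glucose only and 14 at neither. PRKAA2, a catalytic subunit of AMPK (chromosome 1, 57153912 to 57154470), held 21 HNF4A and 1 IgG reads at high glucose and 12 and 9 at low glucose. The ratio of 4.25 at high glucose has a counting interval of 1.61 to 9.62, since it rests on a single IgG read, and a listed 1 may stand for 0 or 1. RPTOR, the scaffold of an mTOR complex (chromosome 17, 78640873 to 78641924), had 62 and 12, then 29 and 15, 2.22 against 0.92, with an interval of the difference of -0.10 to 2.70. A neighbouring RPTOR region (78602909 to 78604029) reached 2-fold at both levels, and 2 more RPTOR regions reached it at neither.

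Wnt genes had the most member regions of any list by number, 5 of 25 (20%), of which 2 were nearest to TNIK. Beside them stood 13 at both levels, 1 at low glucose only and 6 at neither. The share was higher in the bile acid and drug list (33.3%) and in the list of neuron and muscle genes (25%). Over the 25 Wnt regions the median difference of ratios was -0.23, beside -0.15 over all regions. MYC, the proliferation factor that Wnt signalling induces (chromosome 8, 128754906 to 128756047), held 86 HNF4A and 14 IgG reads at high glucose and 36 and 18 at low glucose. Its ratio was 2.47 against 0.97, a difference of 1.5 (0.23 to 2.77), with HNF4A higher by 1.12 (0.54 to 1.72). AXIN2, a negative feedback gene of the pathway (chromosome 17, 63580950 to 63582037), had 74 and 21, then 29 and 16, a difference of 0.84 (-0.40 to 2.06). TNIK, a kinase that activates Wnt transcription, had a pair of member regions on chromosome 3. From 171071972 to 171072984 the reads were 37 and 5, then 24 and 12, and from 171241739 to 171242503 they were 34 and 10, then 26 and 18. Neither interval of the difference, -0.08 to 3.78 and -0.35 to 2.62, excluded 0. Another TNIK region between them (171177916 to 171179093) reached 2-fold at both levels, with 53 and 23, then 54 and 17, and a difference of -0.58 (-1.74 to 0.56). WNT5A, a secreted ligand, had 31 and 14, then 16 and 8, and with a difference of 0.03 it was the member with the least contrast of all 548.

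Further lists gave 1 member each. ERRFI1, a feedback inhibitor of the EGF receptor, held 32 and 9 reads at high glucose and 16 and 9 at low glucose, 1.68 against 0.80, and was the single member among 22 regions of MAPK feedback genes. SMAD3, a transducer of TGF-beta (chromosome 15, 67340475 to 67341698), held 44 and 15, then 29 and 17, 1.41 against 0.74, among 9 regions of SMAD and mesenchymal genes. SYT7, a calcium sensor of vesicle release, held 66 and 19, then 28 and 17, 1.65 against 0.69, among 4 regions of a list of neuron and muscle genes. The 1 region nearest to a blood or stromal gene was not a member. All these list counts rest on few regions and are read against the 10.3% of all regions that are members.

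The largest increases of HNF4A itself were sought after the values had been seen. TJP3, a tight junction protein gene on chromosome 19, held 54 HNF4A reads at high against 11 at low glucose, over 13 and 9 IgG reads, and the log2 ratio of HNF4A was 2.16 (1.21 to 3.24). AHR followed at 2.02. PTGIS, the prostacyclin synthase gene, had a region on chromosome 20 (48210618 to 48211967) with 151 and 40 HNF4A reads over 42 and 31 IgG reads, 1.78 (1.27 to 2.32). In TJP3 and PTGIS the IgG value was not lower at high glucose, at log2 ratios of 0.51 and 0.42. ENSA, a phosphatase inhibitor gene named by its low p over IgG (chromosome 1, 150583651 to 150585003), held 183 and 62 HNF4A reads over 36 and 33 IgG reads, 1.43 (1.0 to 1.87) for HNF4A and 0.11 for IgG. LOC100289230, with 112 and 32 HNF4A reads over 43 and 23 IgG reads, had an HNF4A ratio of 1.67 but, with IgG at 0.89, a difference of ratios of 0.78 (-0.22 to 1.77).

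The highest ratios over IgG at high glucose, in contrast, came from regions with almost no IgG reads. PCSK5, a proprotein convertase gene (chromosome 9, 78565660 to 78566506), held 50 HNF4A and 1 IgG reads at high glucose and 13 and 8 at low glucose. Its log2 ratio of 5.50 at high glucose has an interval of 2.95 to 10.8, and its difference of 4.82 one of 1.65 to 10.3. EGLN1, an oxygen-sensing hydroxylase, followed at 4.76 with 30 and 1 reads, and KITLG, the ligand of the KIT receptor, at 4.55 with 26 and 1. In all, 4 members (0.730%) had IgG listed at 1 read at high glucose and 20 (3.65%) at 3 or fewer, close to the 0.789% and 2.44% of all regions. At least 10 reads in every library were held by 413 members, in which the median difference was 0.75.

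Genes with several member regions allow the members of 1 neighbourhood to be set side by side, although regions of a gene share their surroundings and are not independent. Of the 514 closest genes, 486 had 1 member region and 28 had 2 or more. PHLDA1, an apoptosis-linked gene on chromosome 12, had 3 members among 4 regions, with ratios at high and low glucose of 1.6 and 0.65 (131, 39, 72 and 45 reads in the order given above), 1.02 and 0.36 (65, 29, 38 and 29) and 2.18 and 0.99 (160, 32, 77 and 38). The long noncoding RNA LINC00673 on chromosome 17 had 3 regions, all of them members, at 2.06 and 0.85 (83, 18, 44 and 24 reads), 1.54 and 0.67 (45, 14, 26 and 16) and 1.21 and 0.23 (59, 23, 31 and 26). In these 6 regions HNF4A was higher at high glucose each time. DFNA5, which encodes a gasdermin, had its 2 regions on chromosome 7 as members, at 2.91 and 0.97 (25, 3, 16 and 8) and 2.71 and 0.41 (65, 9, 23 and 17). ETS1, a transcription factor gene on chromosome 11, had 2 members, 2.44 and 0.87 (66, 11, 28 and 15) and 1.73 and 0.97 (55, 15, 38 and 19), beside 1 region at both levels and 1 at neither. PTGIS had a second member, 1.46 and 0.90, and a region just under the threshold at 0.96 and 0.72. TES had 2 members, and its 2 further regions, with 646 and 301 HNF4A reads at high glucose, stood at 0.25 and -0.01, close to IgG.

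**Figure D4:**
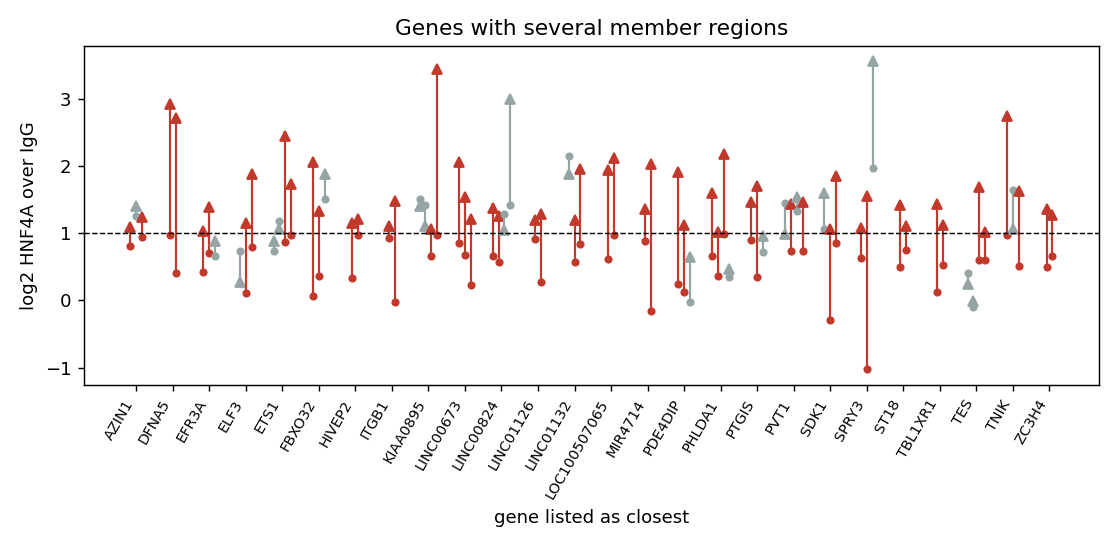
Log2 ratio of HNF4A over IgG at high glucose (triangles) and low glucose (circles) for every region of the genes with at least 2 member regions and at most 5 regions in all; members in red, other regions in grey, and each line joins the values of 1 region. All 3 LINC00673 regions and 3 of 4 PHLDA1 regions cross the dashed threshold of 1 between low and high glucose.

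Of the 514 genes, 327 had members as their only regions, and 187 genes had a member beside a region of another class: 93 a region at both levels, 30 one at low glucose only and 102 one at neither. Pseudogenes and repeats stood out by number of regions: ANKRD26P1 on chromosome 16 had 4 members among 14 regions and LOC441666 had 2 among 24. Reads in such near-identical copies, in ACTR3BP2 and on random contigs can be placed on the wrong copy, and the mapping settings were not given in the sources used here. Of the 494 genes with a RefSeq gene type, 83.6% were protein coding, 10.7% long noncoding RNA and 1.62% pseudogenes, beside 87.2%, 7.32% and 1.93% over all regions. The long noncoding share was 9.71% for regions at both levels, 7.52% at low glucose only and 4.71% at neither.

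Position and length were not used by the rule. The median member was 1014.5 bp long, beside 1030 over all regions, 895.5 at both levels, 1003 at low glucose only and 1255.5 at neither. Another region of any class lay within 50 kb of 249 members (45.4%), against 37.8% of regions at both levels, 43.7% at low glucose only and 53.5% at neither. Another member lay that close to 66 members (12%), and the share with a neighbour of their own class was 17.0% at both levels, 11.2% at low glucose only and 38.3% at neither, classes of unequal size. Among the 21 chromosomes with at least 50 regions, the share of regions that were members ran from 3.51% on chromosome 14 (2 of 57) and 3.90% on chromosome 18 (3 of 77) to 14.8% on chromosome 6 (19 of 128). Chromosome 7 held the most members, 58 of 498 regions, which is 10.6% of the members and 9.35% of all regions. On chromosome 8, 47 of 346 regions (13.6%) were members and 9.25% were at low glucose only, while on chromosome 14 the low glucose share was 26.3%. These counts are small for most chromosomes, regions on a chromosome are not replicates, and copy number of the cell line on each chromosome was not tested.

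**Figure D5:**
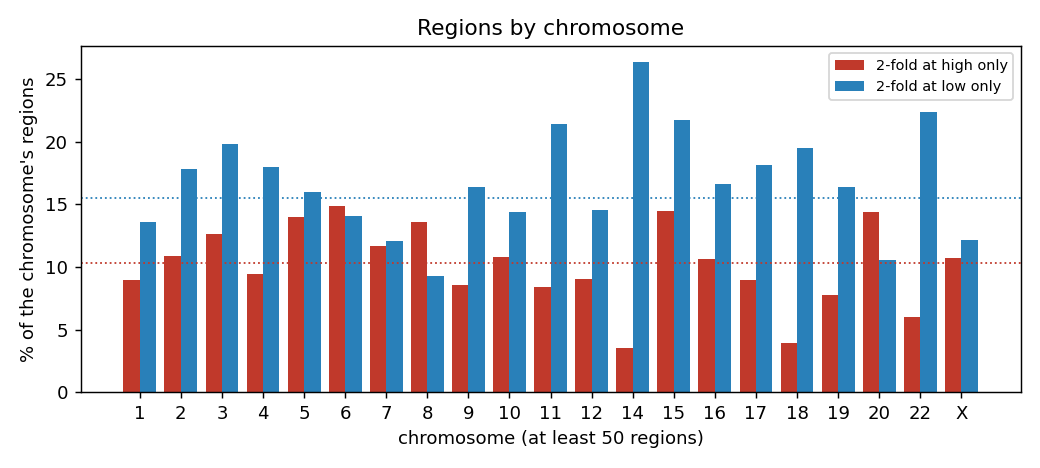
Share of each chromosome's regions that reached 2-fold over IgG at high glucose only (red bars) and at low glucose only (blue bars), for chromosomes with at least 50 regions, with dotted lines at the shares over all regions (10.3% and 15.5%). Chromosomes 6, 8 and 20 have more of the former than of the latter, and chromosome 14 has 3.51% against 26.3%; with each table centred on its median, the totals turn to 597 against 353.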

How the data were processed

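HCCLM3 ChIP-seq libraries, 4 in all and 1 per group, were compared through 3 tables of comparisons that the authors deposited. The submitters' processing notes list HOMER, DiffBind, MACS, Bowtie 1.1.2 and bcl2fastq, with hg19 as build; settings and total sequencing depth were not given in the sources used here. Per the labels' protocols, libraries were amplified by 15 cycles of PCR. Nor was the choice of the 5326 regions. The deposited levels and folds are log2 values, and the deposited p-value and FDR columns are the authors' own. Per the file headers, each table also lists the closest gene.

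Without the log, the deposited log2 levels were whole multiples of 1 step per library within 0.01 for 100% of values, which gave the reads and relative library sizes. A listed 1 read may stand for 0 or 1. The sides of the table of HNF4A alone were settled by matching these reads. Log2 ratios carry exact Clopper-Pearson 95% intervals, and differences of ratios an exact conditional 95% interval. They cover counting error only, since PCR copies are not independent molecules, and not the choice of members. The scripts were checked on simulated reads. Starts are printed counted from 1.

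The members, the 14 gene lists and the rule for named genes were chosen with earlier results of these data known. The rule takes the 10 members with the largest difference of ratios whose level reaches the median of all regions, the 6 with the most HNF4A reads at high glucose, both with 1 region per gene, up to 4 members per list, the regions nearest each threshold, and the 5 lowest p over IgG in the authors' deposited table. TJP3, PTGIS, LOC100289230, EGLN1, KITLG, WNT5A, the members separated by both intervals, and the genes with several regions or microRNAs were named after their values were seen. Some results that the rule names are not reported here. Python 3.11.15, numpy 2.4.6, scipy 1.17.1, pandas 2.3.3 and matplotlib 3.10.9 were used. Alternatives were other thresholds, centring, added reads, a read minimum, the deposited fold and the authors' p.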

Additional observations from a re-analysis of the deposited data

Results flagged for a closer look

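In 28 members (5.11%) HNF4A stood at least 2-fold above IgG at high glucose and below IgG at low glucose. Below IgG at low glucose stood 453 of all regions (8.51%). The point values of the 28 lay on opposite sides of IgG. The difference was not tested across conditions, and the counting interval of the low glucose ratio included 0 in all 28, some of which had as many HNF4A as IgG reads at low glucose. Among the named regions this held for FLJ26245 on chromosome 16 (35215648 to 35216301), with a log2 ratio of 1.22 at high glucose and -0.29 (-0.93 to 0.35) at low glucose. Others include LIMD1-AS1 on chromosome 3, with 38 HNF4A reads over 8 IgG reads at high glucose and 9 over 16 at low glucose and SHCBP1, with 40 and 18, then 14 and 24. ATXN7L1 on chromosome 7 was the deepest by HNF4A reads, with 177 and 74 at high glucose and 81 and 80 at low glucose.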

How the results depend on the processing

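Members depend on the cut: thresholds of 2, 0.5 and centring each table on its median gave 432, 396 and 597 regions, of which 112, 142 and 163 were among the 548, and centring left 353 regions at low glucose only against 824, turning the order of the classes. With 5 reads added to every library there were 678, sharing 415, and with at least 10 reads in each library 413. A low glucose ratio below 0 left 28 members and an authors' p under 0.05 left 39. The deposited fold gave the same 548. In the order threshold 2, threshold 0.5, ratio below 0, centring, 5 reads added, 10 reads and authors' p, the median length was 864.5, 1162.5, 819.5, 893, 966.5, 1138 and 1142 bp. In the same order the median difference of ratios was 1.2, 0.70, 1.72, 1.15, 0.71, 0.75 and 1.5. The median HNF4A ratio of high over low glucose was 0.61 at threshold 0.5, 1.03 for a ratio below 0, 0.30 with centring, 0.60 with 5 reads added and 0.99 with the authors' p. The median IgG ratio was -0.48 at threshold 2, -0.074 at threshold 0.5 and -0.84 for a ratio below 0. It was -0.050 with 10 reads and -0.38 with the authors' p. Centring measures all ratios, and so the differences too, from the medians of all regions, which is another scale. With centring the medians were 0.30 for HNF4A and -0.85 for IgG, beside 0.34 and -0.68 for the 548 on that scale. The chromosome 7 share was 7.87% at threshold 2 and 17.9% with the authors' p. Fewer regions by construction account for the counts of 28 and 39; otherwise the cause was not tested. Of the 33 named members, all 33 were still members with 5 reads added, with differences from 0.29 to 2.61, and 17 were with centring. No paired analysis was possible because each group has 1 library, and for the same reason no replicate could be left out. The motif alternatives were not run. Ratios that rest on 3 or fewer IgG reads are limited by depth.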
